A study of Mus musculus with 17 samples.

Results

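Ccr1, Ccr2, Cx3cr1, Cxcr4 and Ccrl2, which encode chemokine system receptors, were followed through 3 macrophage subsets of the synovium, the membrane lining the joint. They were taken from the joint count table by symbol, as 5 of its 22859 genes, and all 5 passed the filter on low counts, as did 15272 genes in all. Every library came from adult mice of the genotype Fcgr2b-KO, so by their labels the controls, too, carried a knockout of the inhibitory Fc gamma receptor. The injected animals had received immune complexes (ICs) of ovalbumin and rabbit antibody to it through a vein and were culled 8 h later. The control libraries are titled Healthy, and their titles name no injection, so injection as such was not tested apart from ICs. Collagenase digests of the synovium were sorted into LYVE1+CX3CR1+ cells (groups Lyve1_control and Lyve1_IC), MHCII+CD11c- cells (IAIE_control and IAIE_IC) and MHCII+CD11c+ cells (CD11c_control and CD11c_IC). Each group had 3 libraries apart from CD11c_IC, which had 2. The study's methods give both sexes, used across its experiments, and no sex or age for a single library.

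Chemokine receptors are G protein-coupled receptors that steer leukocytes along gradients of small secreted proteins. CCR2 binds CCL2 and related ligands and is needed for classical monocytes to leave the bone marrow, whereas CX3CR1 binds fractalkine and is carried by patrolling monocytes and many resident macrophages. CCR1 responds to CCL3, CCL5 and several other chemokines of inflammation. CXCR4 binds CXCL12, a chemokine that retains cells in bone marrow and tissue. CCRL2 is an atypical member that binds chemerin without classical G protein signalling and presents it to other receptors.

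Library totals ran from 2301913 to 7248939 counts. All 7 macrophage markers, among them Adgre1 and Csf1r, were detected in every group and summed to between 8647 and 17642 CPM (counts scaled to library size, with TMM factors) in every library. Of these 7, 6 were lower in CD11c than in IAIE controls and 6 were lower than in Lyve1 controls. Over all genes tested, 8.66% and 15.2% were called in these comparisons. The 5 markers of the LYVE1 subset summed to 3419 to 4207 CPM in Lyve1_control and 963 to 1753 CPM in IAIE_control. Of these 5, edgeR called 0 between these groups, with 2 at an unadjusted p under 0.05, 0 called by DESeq2 and 3 by voom. Of all 15272 genes tested, edgeR called 1.56% there and 1564 had an unadjusted p under 0.05. Itgax, which encodes CD11c, lay at 275 to 443 CPM in the CD11c libraries and at most at 16.05 CPM in the others. Fcgr2b itself was counted at 69.3 to 248 CPM in the 17 libraries. Which exons the allele lacks is not given in the sources used here, so these counts do not check the genotype. Nothing in the labels says that the libraries of a group came from separate animals, and the p-values measure only the spread between these libraries. In sorted bulk RNA, a larger share of cells carrying a transcript and more RNA per cell cannot be told apart.

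On the mm10 (GRCm38) assembly Ccr2 lies on chromosome 9 at 124101950 to 124113557 on the plus strand. Ccr1 (123962124 to 123968692), Cx3cr1 (119901616 to 120069879) and Ccrl2 (111054486 to 111057519) lie on the minus strand of the same chromosome, and Cxcr4 is on the minus strand of chromosome 1 at 128588199 to 128592293. These are the gene spans of the GENCODE M21 annotation. The span of Cx3cr1 crosses 9 other annotated genes, whereas the spans of the other 4 receptors crossed none. The promoter windows of Ccr2 and Cx3cr1 are printed because the levels of these genes ran in opposite directions between the subsets. Both are RefSeq windows of 300 bases, 250 before and 50 after the start, on GRCm38.p6 at chr9:124101933-124102232 (plus strand) and chr9:120068247-120068546 (minus strand), and capitals mark the match to the C/EBP motif TTNNNCAA on either strand.
Ccr2: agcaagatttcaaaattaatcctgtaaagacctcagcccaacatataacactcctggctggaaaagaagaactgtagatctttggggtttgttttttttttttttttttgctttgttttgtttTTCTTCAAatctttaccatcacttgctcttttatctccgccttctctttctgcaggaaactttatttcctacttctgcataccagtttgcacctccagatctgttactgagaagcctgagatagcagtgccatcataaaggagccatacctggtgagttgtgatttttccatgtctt
Cx3cr1: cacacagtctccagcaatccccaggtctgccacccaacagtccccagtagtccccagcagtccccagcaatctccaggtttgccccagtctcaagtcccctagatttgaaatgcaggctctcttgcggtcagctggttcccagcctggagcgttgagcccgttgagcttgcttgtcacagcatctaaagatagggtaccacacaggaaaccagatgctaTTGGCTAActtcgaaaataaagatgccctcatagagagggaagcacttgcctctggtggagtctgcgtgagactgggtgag
Of all 32851 windows of that length, 36.7% held this motif, so its presence in both is a description of the letters and no sign of a site. The GC content was 38.0% in the Ccr2 window and 54.3% in the Cx3cr1 window.

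Ccr2 separated the subsets more widely than any other of the 5 genes. Its 3 Lyve1_control libraries had 18.3, 22.7 and 38.1 CPM, the IAIE_control libraries 481, 224 and 360 CPM, and the CD11c_control libraries 1152, 547 and 887 CPM. After IC the Lyve1 libraries had 21.6, 14.8 and 4.15 CPM, the IAIE libraries 192, 349 and 281 CPM, and the CD11c libraries 721 and 970 CPM. Every Lyve1 library lay below every library of the other subsets, and the CD11c and IAIE libraries did not overlap either. The share of all genes without overlap was not counted, so overlap is given throughout as a description only. The lowest value, 4.15 CPM, rested on 10 counts, so Ccr2 was counted in all 17 libraries.

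**Figure D1:**
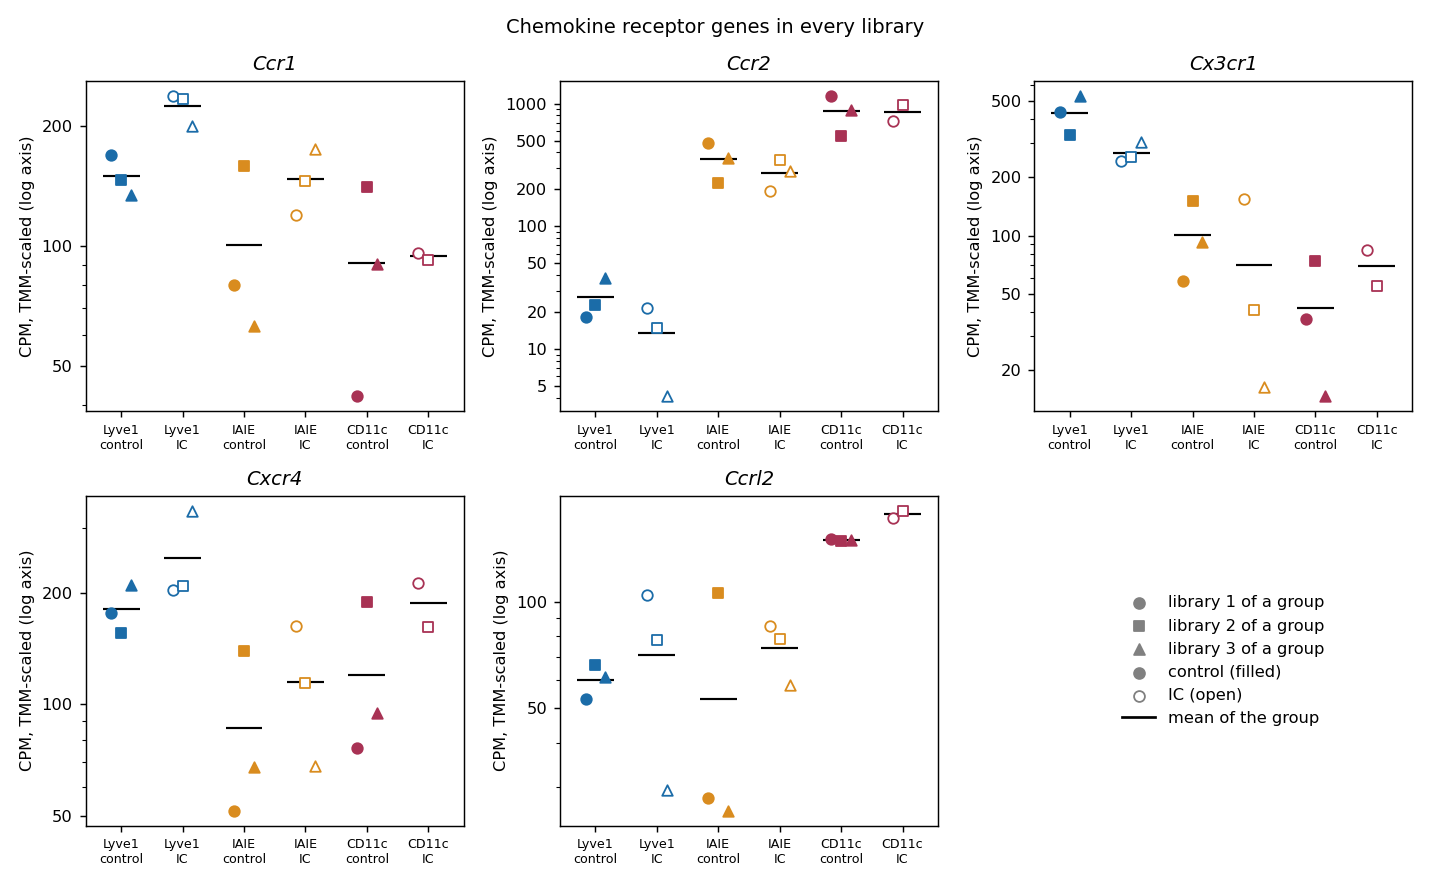
Each panel shows 1 gene, with TMM-scaled CPM on a log axis for the 17 libraries in 6 groups; filled symbols are control libraries, open symbols IC libraries, symbol shapes the library number and lines the group means. Ccr2 was at 38.1 CPM or less in all Lyve1 libraries and at 192 CPM or more in the rest, whereas Cx3cr1 was at 244 CPM or more in all Lyve1 libraries and at 154 CPM or less in the rest.

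Among control animals, Ccr2 was 13.4-fold lower in Lyve1 than in IAIE macrophages (log2 fold change -3.74 ± 0.51 SE, adjusted p = 0.00262, edgeR quasi-likelihood test). Of the 5 receptors only Ccr2 was called at an adjusted p under 0.05 in that comparison, in which 1.56% of all genes tested were called. Against CD11c macrophages the deficit was 32.5-fold (-5.02 ± 0.54, adjusted p = 3.22e-05 by edgeR), and here 2 of the 5 receptors were called, beside 15.2% of all genes. After IC the same gaps stood at -4.30 ± 0.54 against IAIE (adjusted p = 0.000572 by edgeR) and at -5.93 ± 0.59 against CD11c (adjusted p = 3.04e-05 by edgeR), with 1 receptor called in each and 5.54% and 11.9% of all genes. Leaving out any single library kept all 4 calls. With limma voom and sample weights the gap to IAIE after IC missed the threshold (adjusted p = 0.0897), as 0 of the 5 receptors were called there.

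Between the MHCII+ subsets Ccr2 was higher in the CD11c libraries, by 1.28 ± 0.46 on the log2 scale in controls (adjusted p = 0.117 by edgeR) and by 1.62 ± 0.50 after IC (adjusted p = 0.105 by edgeR). Neither value passed the threshold, although the libraries did not overlap. In controls the deviations of Ccr2 from the group mean were close in same-numbered libraries, at 0.51 and 0.48, -0.59 and -0.59, and 0.088 and 0.11 in IAIE and CD11c on the log2 scale. With the library number as a block over all 17 libraries, the difference in controls was 1.28 ± 0.50 (adjusted p = 0.169 by edgeR). That block gives each number a single effect shared by all 6 groups. A paired fit of IAIE_control and CD11c_control alone was not run, so this value does not assess such a pairing. In these comparisons 0 of the 5 receptors were called, beside 8.66% and 4.03% of all genes. At an unadjusted p under 0.05 there were 2 of 5 in controls and 2 of 5 after IC. Of all 15272 genes tested, 3264 in controls and 2140 after IC had such a p. DESeq2 called 2 and 1, and voom 2 and 2. Both Ccr2 values were called without Lyve1_IC library 3 (adjusted p = 0.0312 in controls and 0.0241 after IC, by edgeR). That library belongs to neither group but is part of the shared fit.

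Dendritic cell markers followed the order of Ccr2 over the subsets, whereas monocyte and neutrophil markers did so only in part. The 8 dendritic cell markers summed to 11.02 to 28.0 CPM in the Lyve1 libraries, 79.0 to 272 CPM in the IAIE libraries and 289 to 704 CPM in the CD11c libraries. Of the 7 that were tested, 4 were lower in Lyve1 than in IAIE controls and 6 were lower than in CD11c controls, with none higher. Over all genes tested, 1.56% were called between Lyve1 and IAIE controls and 15.2% between Lyve1 and CD11c controls. Flt3, Dpp4 and Cd209a were among the called ones in both, and 1 of the 8, Ccr7, was at 0 in all 6 Lyve1 libraries. Ly6c2, the defining gene of classical monocytes, was at 0 in the Lyve1 libraries and at 5.12 CPM or less in the others. The paper's gate for the LYVE1 subset also required cells without Ly6C, so the 0 there is tied to the sort. Of the 10 monocyte markers, 5 were lower and 2 higher in Lyve1 than in CD11c controls, with a median log2 difference of -3.65 beside 0.05 over all genes. Their sum ran the other way, at 3161 to 4435 CPM in the Lyve1 and 567 to 1077 CPM in the CD11c libraries. Of the 8 neutrophil markers, 4 were lower in Lyve1 than in CD11c controls. Their sum was 30.8 to 40.5 CPM in Lyve1_control, 41.1 to 311 CPM in IAIE_control and 89.4 to 482 CPM in CD11c_control, but 12.6 to 32.8 CPM in Lyve1_IC and 25.1 to 29.5 CPM in CD11c_IC. The summed markers of lymphocytes, mast cells, fibroblasts and endothelial cells overlapped between the Lyve1 and the CD11c libraries. The part of any of these cell types in the Ccr2 levels was not tested.

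Cx3cr1 ran the other way. The Lyve1_control libraries had 435, 333 and 528 CPM and the Lyve1_IC libraries 244, 254 and 304 CPM. The IAIE_control libraries had 58.0, 150 and 92.6 CPM and the IAIE_IC libraries 154, 41.0 and 16.5 CPM. The CD11c_control libraries had 37.0, 73.9 and 14.7 CPM and the CD11c_IC libraries 84.2 and 54.8 CPM. All Lyve1 libraries stood above all others, and the IAIE and CD11c libraries overlapped. CX3CR1 protein was one of the surface markers by which the Lyve1 cells were sorted, so a higher Cx3cr1 transcript there is tied to the gate.

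The fold of Cx3cr1 over CD11c controls was 10.1 (log2 fold change 3.34 ± 0.77 SE, adjusted p = 0.0112, edgeR), and this call held in each of the 25 alternative fits, with an adjusted p of at most 0.0488. Over IAIE controls Cx3cr1 was higher by 2.10 ± 0.73 (adjusted p = 0.267 by edgeR). After IC the values were 1.92 ± 0.73 over IAIE (adjusted p = 0.157 by edgeR) and 1.94 ± 0.84 over CD11c (adjusted p = 0.171 by edgeR), so the gap to CD11c was not called after IC. Whether the gap itself differed between control and IC was tested as a difference of responses and was not called (-1.40 ± 1.05, adjusted p = 0.823 by edgeR). IAIE_IC library 1, the highest of the MHCII+ libraries, weighed on the comparison after IC, since without it Cx3cr1 was higher in Lyve1 than in IAIE by 3.23 ± 0.66 (adjusted p = 0.0128 by edgeR).

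**Figure D2:**
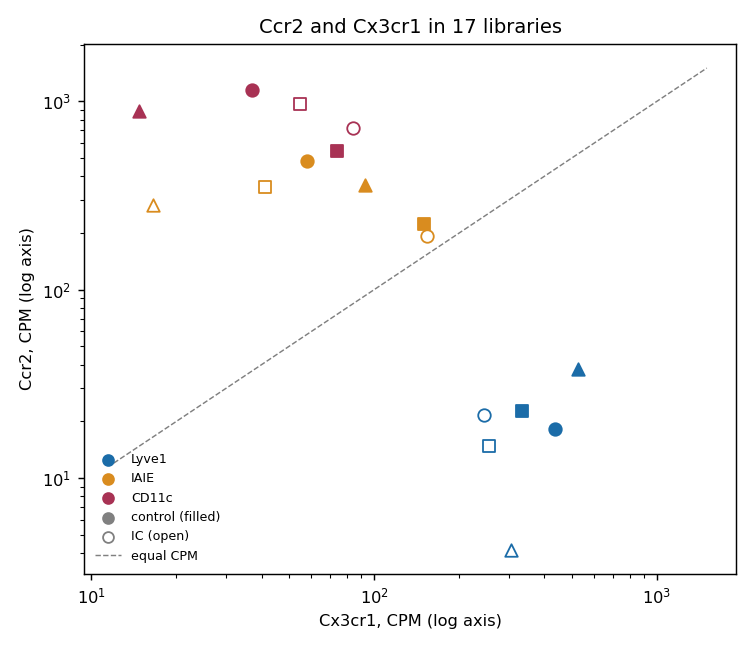
Ccr2 is plotted against Cx3cr1 in the 17 libraries, both as TMM-scaled CPM on log axes; colours are the subsets, filled symbols control and open symbols IC libraries, shapes the library number and the dashed line equal CPM. All 6 Lyve1 libraries lie below the line and the 11 libraries of the MHCII+ subsets above it.

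The ratio of the 2 receptors placed every library on its own side. The log2 ratio of Ccr2 to Cx3cr1 averaged -4.06 ± 0.42 (SD, n = 3) in Lyve1_control and -4.53 ± 1.35 (SD, n = 3) in Lyve1_IC. It was 1.86 ± 1.23 (SD, n = 3) in IAIE_control, 2.48 ± 1.93 (SD, n = 3) in IAIE_IC, 4.56 ± 1.53 (SD, n = 3) in CD11c_control and 3.61 ± 0.74 (SD, n = 2) in CD11c_IC. The highest Lyve1 library had -3.47 and the lowest MHCII+ library 0.32, whereas the IAIE and CD11c ranges overlapped. As CX3CR1 was part of the sort, the ratio is a description and was given no test.

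The group means of Ccr1 ran from 91.0 to 224 CPM. The libraries of Lyve1_control had 169, 147 and 134 CPM, of IAIE_control 80.0, 159 and 63.2 CPM, and of CD11c_control 42.1, 141 and 90.4 CPM. After IC the Lyve1 libraries had 238, 234 and 200 CPM, the IAIE libraries 120, 146 and 176 CPM, and the CD11c libraries 96.4 and 92.5 CPM. The control groups overlapped, and after IC the order was Lyve1, IAIE and CD11c without overlap. Ccr1 was higher in Lyve1 than in CD11c macrophages after IC by 1.25 ± 0.40 on the log2 scale, just outside the threshold (adjusted p = 0.0530 by edgeR).

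That Ccr1 value was called in 10 of 25 alternative fits, DESeq2 (adjusted p = 0.00539) and voom (adjusted p = 0.00887) among them. It was called without CD11c_control library 1 (adjusted p = 0.00768), CD11c_control library 2 (0.0148), IAIE_control library 2 (0.0130) or IAIE_control library 3 (0.0324), again libraries outside the compared groups. In controls the difference was 0.72 ± 0.35 (adjusted p = 0.199 by edgeR) and 1.19 ± 0.33 without CD11c_control library 2 (adjusted p = 0.0166 by edgeR). Over IAIE, Ccr1 differed by 0.57 ± 0.35 in controls (adjusted p = 0.689 by edgeR) and 0.61 ± 0.35 after IC (adjusted p = 0.326 by edgeR). Between CD11c and IAIE it differed by -0.15 ± 0.35 (adjusted p = 0.869 by edgeR) and -0.64 ± 0.39 (adjusted p = 0.549 by edgeR).

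Cxcr4 had 176, 156 and 210 CPM in Lyve1_control, 51.6, 139 and 67.9 CPM in IAIE_control, and 76.1, 189 and 94.5 CPM in CD11c_control. After IC it had 203, 209 and 333 CPM in Lyve1, 163, 114 and 68.0 CPM in IAIE, and 213 and 162 CPM in CD11c. The Lyve1 libraries lay above the IAIE libraries under both conditions and overlapped with those of CD11c. The log2 difference from IAIE was 1.07 ± 0.42 in controls (adjusted p = 0.339 by edgeR) and 1.11 ± 0.42 after IC (adjusted p = 0.144 by edgeR). Without IAIE_control library 2 the value in controls rose to 1.60 ± 0.40 and was called (adjusted p = 0.0404 by edgeR). The differences from CD11c, 0.59 ± 0.41 in controls and 0.41 ± 0.46 after IC, and those between CD11c and IAIE, 0.47 ± 0.42 and 0.70 ± 0.45, were within the spread between libraries (adjusted p of 0.423, 0.645, 0.583 and 0.594 by edgeR).

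Ccrl2 had 53.2, 66.2 and 61.3 CPM in Lyve1_control, 27.9, 106 and 25.7 CPM in IAIE_control, and 150, 148 and 149 CPM in CD11c_control. After IC it had 104, 78.1 and 29.5 CPM in Lyve1, 85.4, 78.7 and 58.3 CPM in IAIE, and 172 and 180 CPM in CD11c. The CD11c libraries stood above all 12 others, and those of Lyve1 and IAIE overlapped. The summed dendritic cell markers were highest in the CD11c libraries as well, and their part in Ccrl2 was not tested. Even so the gaps did not pass the threshold in edgeR: CD11c exceeded IAIE controls by 1.47 ± 0.49 (adjusted p = 0.0841), and the difference of Lyve1 from CD11c controls was -1.31 ± 0.48 (adjusted p = 0.0907). After IC the values were 1.25 ± 0.52 (adjusted p = 0.280 by edgeR) and -1.31 ± 0.53 (adjusted p = 0.131 by edgeR).

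One library carried much of the spread in Ccrl2. IAIE_control library 2 had 106 CPM against 27.9 and 25.7 CPM in the other two, and without it the CD11c excess over IAIE controls was 2.47 ± 0.35 (adjusted p = 4.45e-05 by edgeR). Without it the deficit of Lyve1 against CD11c was also called, in controls (adjusted p = 0.00191) and after IC (adjusted p = 0.00581), as was the excess of CD11c over IAIE after IC (adjusted p = 0.0163), all by edgeR. Both control values were called without Lyve1_IC library 3 too (adjusted p = 0.0287 and 0.0313), and the deficit in controls without IAIE_control library 3 (adjusted p = 0.0401). With the library number as a block, the CD11c excess over IAIE controls was 1.64 ± 0.44 (adjusted p = 0.0339 by edgeR). Lyve1 and IAIE differed by 0.16 ± 0.48 in controls (adjusted p = 0.992 by edgeR) and -0.06 ± 0.48 after IC (adjusted p = 0.965 by edgeR).

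**Figure D3:**
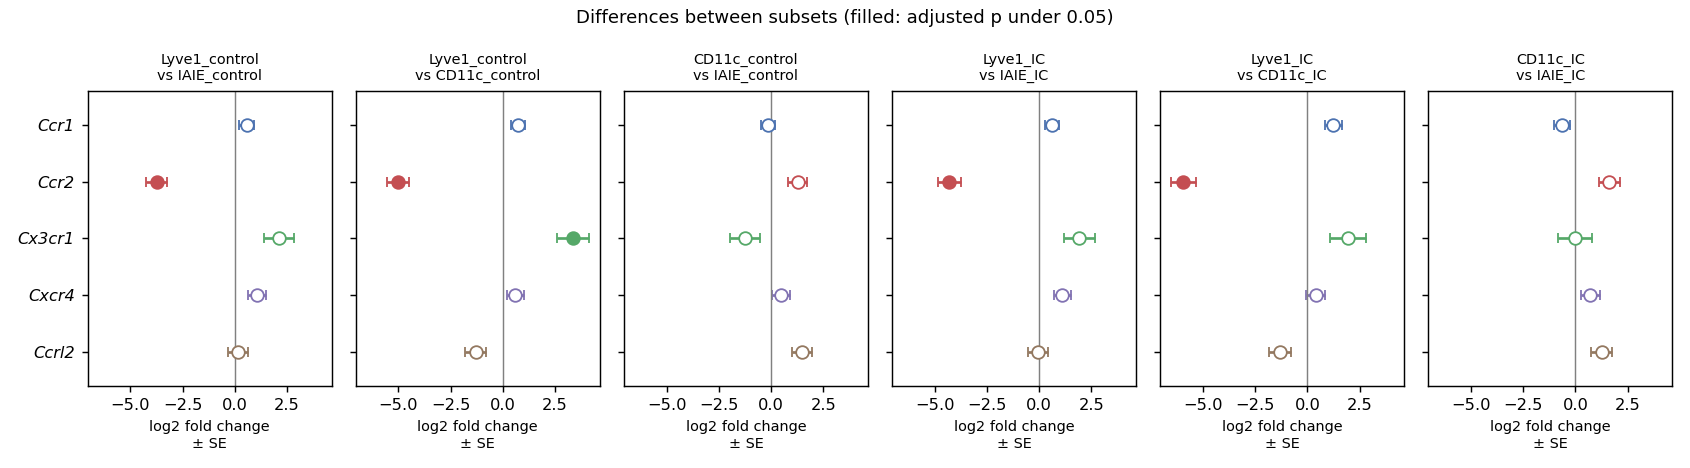
Each panel is 1 comparison of subsets, with the edgeR log2 fold change of each receptor and its SE as the bar; filled circles have an adjusted p under 0.05. Ccr2 is filled in the 4 comparisons of Lyve1 with another subset, from -3.74 to -5.93, and Cx3cr1 in that of Lyve1 with CD11c controls at 3.34.

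IAIE_control library 2 stood apart in more than Ccrl2. Ccr1, Cx3cr1 and Cxcr4 were highest in that library of its group as well, at 159, 150 and 139 CPM, and Ccr2 was lowest at 224 CPM. In the same library the dendritic cell markers summed to 110 CPM, against 205 and 272 CPM in the other 2, and the monocyte markers to 2053 CPM, against 3773 and 3455 CPM. The markers of the LYVE1 subset summed to 1753 CPM there, against 963 and 1054 CPM. It was also the deepest of its group, with 5804056 counts. CD11c_control library 2 stood apart in a like way, with the lowest Ccr2 (547 CPM) and the highest Ccr1 (141 CPM), Cx3cr1 (73.9 CPM) and Cxcr4 (189 CPM) of its group. Its LYVE1 subset markers summed to 558 CPM, against 63.2 and 49.5 CPM, its MHCII markers to 20909 CPM, against 34580 and 30974 CPM, and its dendritic cell markers to 289 CPM, against 704 and 649 CPM. After IC, IAIE_IC library 1 had the lowest Ccr2 (192 CPM) and the highest Cx3cr1 (154 CPM) and Cxcr4 (163 CPM) of its group. Its Ccr1 was the lowest, at 120 CPM. Its LYVE1 subset markers summed to 3213 CPM, against 1803 and 2837 CPM, and its MHCII markers to 11195 CPM, against 11659 and 11443 CPM. The part of cell makeup or depth in these values was not tested.

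Per kilobase of exon, on which scale genes can be compared with each other, Cxcr4 and Cx3cr1 led in Lyve1_control, with 36.2% ± 1.2 (SD, n = 3) and 34.5% ± 3.6 (SD, n = 3) of the 5 receptors' summed level. Ccr2 took 1.40% ± 0.42 (SD, n = 3) there, 32.6% ± 17.01 (SD, n = 3) in IAIE_control and 43.9% ± 16.2 (SD, n = 3) in CD11c_control. By mean share it led in both of these groups, but Cxcr4 exceeded it in library 2 of each. In IAIE_control library 2 Ccr2 was the lowest of the 5, at 33.2 CPM per kilobase. There Cxcr4 had 76.8, Ccr1 56.1, Ccrl2 40.7 and Cx3cr1 33.3 CPM per kilobase. Ccrl2 took 8.53% ± 1.78 (SD, n = 3), 10.3% ± 5.8 (SD, n = 3) and 19.7% ± 1.2 (SD, n = 3) in the same order. The summed level was 276 ± 35 CPM per kilobase (SD, n = 3) in Lyve1_control, 178 ± 54 (SD, n = 3) in IAIE_control and 293 ± 16 (SD, n = 3) in CD11c_control, and the Lyve1 and CD11c sums overlapped. After IC, Cx3cr1 made up 19.4% ± 0.9 (SD, n = 3) of the sum in Lyve1 macrophages, and Cxcr4 44.5% ± 9.2 (SD, n = 3). In IAIE_IC the mean share of Ccr2 was 20.8% ± 7.2 (SD, n = 3). That was below Cxcr4 at 30.9% ± 8.6 (SD, n = 3) and Ccr1 at 26.9% ± 9.4 (SD, n = 3). In CD11c_IC Ccr2 led by mean share, at 36.2% ± 7.3 (SD, n = 2). Exon lengths were those of all GENCODE exons of a gene merged, from 1808 bases for Cxcr4 to 6760 for Ccr2.

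**Figure D4:**
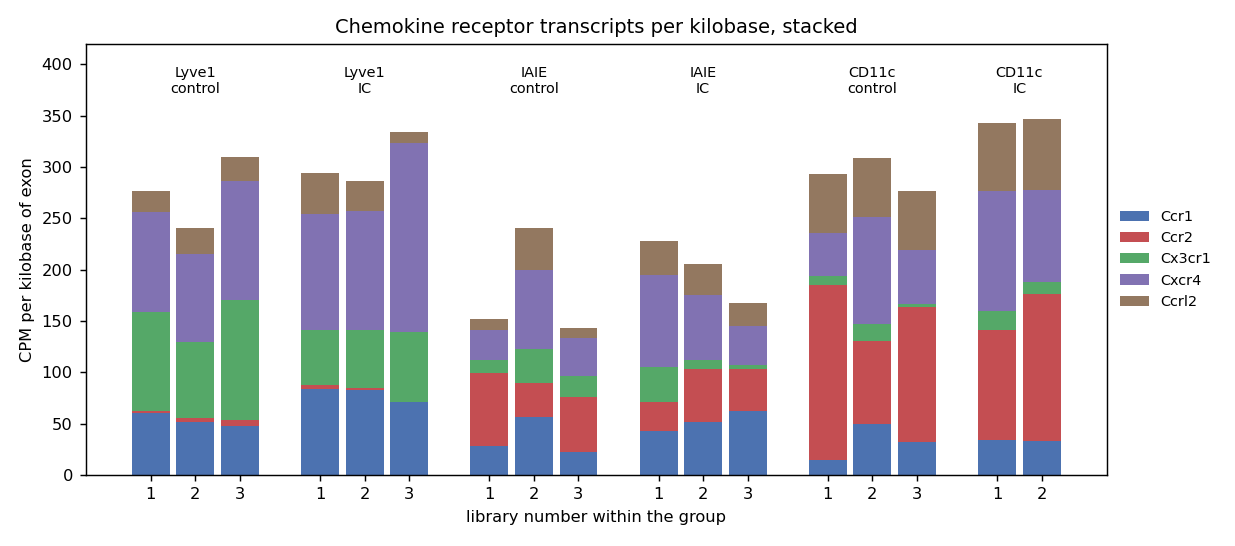
Stacked bars give CPM per kilobase of merged exon for the 5 receptors in each library, grouped by subset and treatment, with the library number below each bar. Ccr2 makes up 1.82% or less of the bar in the Lyve1 libraries and 12.5% or more in every IAIE and CD11c library.

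None of the 5 receptors was called after IC in any subset. In Lyve1 macrophages Ccr1 differed by 0.58 ± 0.35 on the log2 scale, Cxcr4 by 0.46 ± 0.41 and Ccrl2 by 0.24 ± 0.48, whereas Cx3cr1 differed by -0.69 ± 0.70 and Ccr2 by -0.93 ± 0.51. The adjusted p values were between 0.447 and 0.898 (edgeR), and 0.963% of all genes were called. The Ccr1 and Cx3cr1 libraries of Lyve1_IC and Lyve1_control did not overlap, Ccr1 being higher and Cx3cr1 lower after IC. Neither difference passed the test, and the share of all genes without overlap was not counted. The median log2 difference over all genes was -0.14 in this comparison.

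In IAIE macrophages the differences were 0.54 ± 0.35 for Ccr1, 0.47 ± 0.48 for Ccrl2, 0.41 ± 0.42 for Cxcr4, -0.37 ± 0.45 for Ccr2 and -0.51 ± 0.71 for Cx3cr1, beside 0.701% of all genes called. In CD11c macrophages they were 0.71 ± 0.79 for Cx3cr1, 0.64 ± 0.45 for Cxcr4, 0.24 ± 0.53 for Ccrl2, 0.05 ± 0.39 for Ccr1 and -0.03 ± 0.50 for Ccr2, beside 0.216% of all genes. In all 3 subsets 0 of the 5 receptors had an unadjusted p under 0.05, and DESeq2 and voom called 0 as well. Without IAIE_control library 2, Ccrl2 was higher after IC in IAIE macrophages by 1.46 ± 0.34 (adjusted p = 0.0321 by edgeR), the only call that leaving out a library produced in these comparisons.

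**Figure D5:**
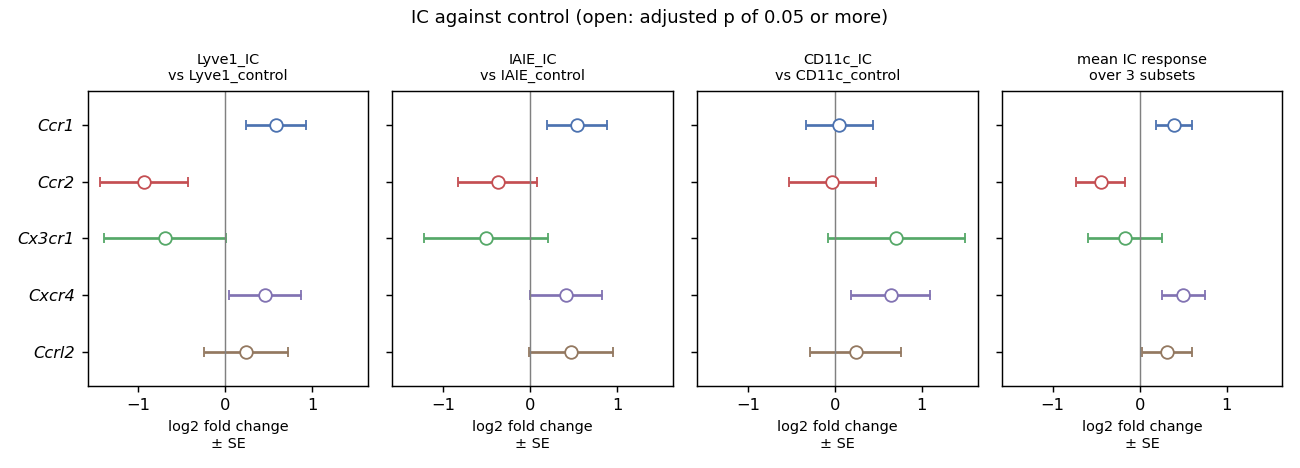
Each panel shows the edgeR log2 fold change of IC over control with its SE, for 1 subset or for the mean of the 3 subsets. All circles are open, since no adjusted p was under 0.05, and the mean responses lie between -0.44 for Ccr2 and 0.50 for Cxcr4.

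Averaging the response over the subsets narrowed the errors without a call. The mean log2 responses were 0.50 ± 0.25 for Cxcr4 (adjusted p = 0.313), 0.39 ± 0.21 for Ccr1 (adjusted p = 0.351), 0.31 ± 0.29 for Ccrl2 (adjusted p = 0.651), -0.16 ± 0.43 for Cx3cr1 (adjusted p = 0.901) and -0.44 ± 0.28 for Ccr2 (adjusted p = 0.469), all by edgeR. The median over the 5 was 0.31, that over all genes tested -0.07, and 3.35% of all genes were called. Without IAIE_control library 2 the mean response of Ccrl2 was 0.65 ± 0.18 and was called (adjusted p = 0.0411 by edgeR). At an unadjusted p under 0.05 there were 0 of 5, and 0 by DESeq2 and by voom.

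Nor did the responses differ between subsets by the test of the difference itself, with 0 of 5 receptors called by edgeR, DESeq2 and voom and 0 of 5 at an unadjusted p under 0.05 in each of the 3 differences. The widest were those of Cx3cr1, -1.40 ± 1.05 for Lyve1 minus CD11c and 1.22 ± 1.06 for CD11c minus IAIE, and that of Ccr2, -0.91 ± 0.71 for Lyve1 minus CD11c. Over all genes the calls were 0.0327% for Lyve1 minus CD11c and 0.0262% for Lyve1 minus IAIE. For CD11c minus IAIE edgeR called 0 genes (0%), with 496 genes at an unadjusted p under 0.05, 2 genes by DESeq2 and 0 by voom. The SEs of these differences, 0.49 to 1.06, are the limit on what these libraries could show.

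How the receptors moved together within groups was followed by the deviation of each library from its group mean on the log2 scale. Over the 17 libraries the deviations of Cx3cr1 and Cxcr4 had a Pearson r of 0.80 and those of Ccr2 and Cxcr4 one of -0.66. Cx3cr1 and Ccr2 had -0.41, and the other 7 pairs of receptors lay between -0.33 and 0.49. The libraries share 1 normalization, and these values are descriptions with no test.

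The genes with the pattern closest to each receptor over the 17 libraries were picked by Pearson r of log2 CPM. For Ccr2 these were H2-DMb1 (r = 0.99), Mefv (0.98) and H2-DMa (0.98). H2-DMb1 and H2-DMa encode chains of the chaperone that loads peptides on MHCII, and Mefv encodes pyrin, an inflammasome sensor. H2-DMb1 averaged 10.5 CPM in Lyve1_control, 192 CPM in IAIE_control and 455 CPM in CD11c_control, and MHCII was a sort marker. For Cx3cr1 they were Sox4 (0.96), a transcription factor gene, Zfand2a (0.96) and Mtmr10 (0.95).

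Ccr1 was closest to Ctsk (r = 0.90), which encodes cathepsin K, Pam (0.89) and Lgals1 (0.89), the gene of galectin-1. Cxcr4 was closest to Tgm2 (0.91), which encodes a transglutaminase, Havcr2 (0.91), the gene of TIM-3, and Rasgef1b (0.90). Ccrl2 was closest to Dnajc8 (0.95), Lat2 (0.91) and Tpm4 (0.91). The coefficients were taken over all 17 libraries, differences between groups included.

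Among 20 other receptor genes of the system, 18 were in the table and 10 passed the filter. In controls Lyve1 macrophages had 1 of 10 lower than IAIE, beside 1.56% of all genes called. Against CD11c they had 1 higher and 1 lower, beside 15.2% of all genes. The lower one was Ccr7, the receptor that guides dendritic cells to lymph nodes, at 0 counts in all 6 Lyve1 libraries, 1.41 to 16.4 CPM in IAIE_control and 21.1 to 50.7 CPM in CD11c_control. The higher one was Cmklr1, the signalling receptor of chemerin, by 2.16 ± 0.26 (adjusted p = 4.34e-06 by edgeR). Cmklr1 was also lower in CD11c than in IAIE controls (log2 fold change -2.14 ± 0.26, adjusted p = 1.17e-05 by edgeR), whereas Ccrl2, the other chemerin receptor measured here, was at its highest in CD11c libraries. After IC edgeR called 0 of the 10 in each subset. At an unadjusted p under 0.05 there were 2 in Lyve1, 1 in IAIE and 1 in CD11c macrophages. Of all 15272 genes tested, 2159, 1526 and 795 had such a p, in the same order. DESeq2 called 0 in each and voom 1, in CD11c macrophages. The median log2 difference of the 10 between Lyve1 and IAIE controls was -1.20, beside -0.0041 over all genes.

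Of 14 genes listed as ligands of the receptors, all were tested. In Lyve1 controls 1 was higher and 4 were lower than in IAIE controls, beside 1.56% of all genes called. Against CD11c controls 2 were higher and 3 lower in Lyve1, beside 15.2% of all genes. Ccl8, whose receptor in the mouse was not examined here, had 162 ± 21 CPM (SD, n = 3) in IAIE_control against 24.5 ± 7.3 CPM (SD, n = 3) in Lyve1_control. The difference was -2.72 ± 0.50 (adjusted p = 0.0122 by edgeR). Ccl7, a ligand of CCR2, was higher in Lyve1 than in CD11c controls by 1.18 ± 0.30 (adjusted p = 0.00968 by edgeR). Ccl3, a ligand of CCR1, was higher in Lyve1 than in IAIE controls by 1.60 ± 0.30 (adjusted p = 0.00579 by edgeR). Ccl5 was at 0 counts in the Lyve1_control libraries and at 2.77 to 18.6 CPM in CD11c_control.

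After IC edgeR called 2 of the 14 ligands in Lyve1 and 3 in IAIE macrophages, beside 0.963% and 0.701% of all genes. In Lyve1 macrophages Ccl9, a ligand of CCR1, rose by 1.45 ± 0.24 (adjusted p = 0.00436 by edgeR), and Ccl2, the main ligand of CCR2, fell by 1.30 ± 0.22 on the log2 scale (adjusted p = 0.00332 by edgeR), while 12 of 14 did not pass the test. In IAIE macrophages Ccl9 rose by 2.11 ± 0.24 (adjusted p = 0.000149 by edgeR), Ccl6 by 1.78 ± 0.30 (adjusted p = 0.00876 by edgeR) and Ccl3 by 1.52 ± 0.30 (adjusted p = 0.0145 by edgeR), with 11 of 14 not passing. The median response of the 14 was -0.32 in Lyve1, 0.93 in IAIE and 0.57 in CD11c macrophages, beside -0.14, -0.03 and 0.01 over all genes. In CD11c macrophages edgeR called 0 of the 14, with 4 at an unadjusted p under 0.05, 1 called by DESeq2 and 0 by voom. Of all 15272 genes tested, edgeR called 0.216% there and 795 had an unadjusted p under 0.05. In the mean response 4 of 14 rose (Ccl3, Ccl6, Ccl9 and Ccl12), beside 3.35% of all genes called in either direction. The difference of responses between Lyve1 and IAIE macrophages gave 0 of 14 by edgeR, DESeq2 and voom, with 6 at an unadjusted p under 0.05. Such a p was found for 1152 of all 15272 genes tested in that difference.

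Of 26 genes of receptor signalling in the table, 25 were tested. In controls 2 were higher and 2 lower in Lyve1 than in IAIE macrophages, beside 1.56% of all genes called. Against CD11c macrophages 6 were higher and 6 lower in Lyve1, beside 15.2% of all genes. Elmo1, which acts with DOCK proteins on Rac, was higher in Lyve1 than in CD11c controls by 1.64 ± 0.21 (adjusted p = 7.02e-06 by edgeR). Rgs10, a GTPase-activating protein for G protein alpha subunits, was higher by 1.72 ± 0.26 (adjusted p = 6.01e-05 by edgeR). Plcb2, a phospholipase C activated by G proteins, had 0.26 ± 0.33 CPM (SD, n = 3) in Lyve1_control and 101 ± 36 CPM (SD, n = 3) in CD11c_control, and Grk3, a kinase that desensitizes such receptors, 0.84 ± 0.57 CPM (SD, n = 3) and 121 ± 60 CPM (SD, n = 3). The median of the 25 was -0.0060 in the comparison with CD11c, beside 0.05 over all genes. After IC edgeR called 0 of the 25 in each subset. At an unadjusted p under 0.05 there were 3 in Lyve1, 5 in IAIE and 1 in CD11c macrophages, beside 2159, 1526 and 795 of all 15272 genes. DESeq2 called 2, both in IAIE macrophages, and voom 0.

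Of the 5 receptors, 7 RefSeq promoter windows were searched on both strands for 8 motifs. Besides C/EBP these were the PU.1 core GAGGAA (28.3% of all windows), AP-1 TGANTCA (7.81%), the glucocorticoid-receptor hexamer AGAACA (19.0%), TATAAA (13.6%), the RUNX site TGTGGT (16.8%), the cAMP element TGACGTCA (1.79%) and an NF-kappaB pattern of GGG, 5 free bases and CC (50.8%). The windows of Ccr1, Ccr2, Cx3cr1 and Cxcr4 held 1 C/EBP match each, at 131, 127, 31 and 198 bases before the start. Only the Ccr1 window held the PU.1 core, and the Cxcr4 window alone held TATAAA, 2 matches on opposite strands that overlap in their letters, at 32 and 30 bases before the start. Ccrl2 had 3 windows, 1 of them with 5 matches to the NF-kappaB pattern, at 68, 56 and 55 bases before the start. Those at 56 and 55 were on both strands and overlapped. The pattern also occurred once each in the Cx3cr1 and Ccr1 windows. The RUNX site occurred in the Cx3cr1 and Ccr1 windows and the hexamer in that of Cxcr4 and in 2 of Ccrl2. AP-1 and the cAMP element occurred in none of the 7. The 3 Ccrl2 windows overlap each other, and the hexamer in 2 of them is the same stretch of the genome. The C/EBP motif was chosen for the printed windows after the matches had been seen.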

How the data were processed

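Sorted synovial macrophages were profiled by RNA-seq from 5 ng of total RNA per library with the Takara SMARTer stranded pico kit. The authors used Trim Galore for trimming, HISAT2 for alignment (mm10) and featureCounts for counting. The deposited values are raw counts, and the versions, annotation and strand setting are not given in the sources used here. The joint table equalled each of the 17 single-library tables. It held 1 further column with no matching sample, which summed to 0 and was not used.

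Groups came from the labels. Genes were kept by filterByExpr (minimum count 10), scaled by TMM and tested with edgeR 4.0.16 (R 4.3.3) by quasi-likelihood on 6 group means with 11 residual degrees of freedom. P-values were adjusted by the Benjamini-Hochberg method over 15272 genes per comparison and called under 0.05. The SE printed with an edgeR log2 fold change is its absolute value divided by the square root of the quasi-likelihood F statistic. It was derived from the test and is not a standard error reported by the model. The biological coefficient of variation was 45.1%. Scripts were tested on simulated data. Library totals set the precision, with 3 counts as the floor.

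Alternatives were DESeq2 1.42.0, RLE scaling, no filter, only the compared groups, voom with sample weights (limma 3.58.1), sva 3.50.0, thinning to the smallest total, the library number as a block, and leaving out each library. No batch is named in the labels. Deviations of libraries with the same number had r over 0.1 in 9 of 40 pairs. Only IAIE_control and CD11c_control had every pair over 0.1 on the 2000 most variable genes (0.15 to 0.47), and not on all genes (lowest 0.080).

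The members and lists were chosen with earlier results of these data known. Named genes were the 5 members, the 3 genes most correlated with each (log2 CPM, prior count 2) and, from the lists of receptors, ligands and signalling genes, at most 4 called genes per family of comparisons, by smallest p. Ccl12 and single marker genes were named after their values were seen. 1 further gene of the rule is not reported here. Exon lengths and positions came from GENCODE M21, to which 97.4% of symbols matched.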

Additional observations from a re-analysis of the deposited data

How the results depend on the processing

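The 4 Ccr2 gaps between Lyve1 and the other subsets kept their direction under all 25 alternatives, and their call in all except voom after IC against IAIE. The Cx3cr1 gap to CD11c controls kept both. Numbers of receptors called differed from those of edgeR as follows. For Lyve1 against IAIE controls, 2 with only the compared groups and 3 by voom. For Lyve1 against CD11c controls, 4 by voom, and 3 by DESeq2, with only the compared groups and with surrogate variables. For CD11c against IAIE controls, 2 by DESeq2 and by voom, and 1 with thinning, with only the compared groups, with surrogate variables and with the replicate block. After IC, Lyve1 against IAIE gave 3 by DESeq2 and 0 by voom. Lyve1 against CD11c gave 3 by DESeq2 and with only the compared groups, 2 with RLE scaling, thinning or the replicate block, and 4 by voom. CD11c against IAIE gave 1 by DESeq2 and with surrogate variables, and 2 with only the compared groups and by voom. Leaving out 1 library gave 1 to 2 for Lyve1 against IAIE controls, 2 to 3 for Lyve1 against CD11c controls, 0 to 2 for CD11c against IAIE controls, 1 to 2, 1 to 3 and 0 to 1 for Lyve1 against IAIE, Lyve1 against CD11c and CD11c against IAIE after IC, and 0 to 1 for the response of IAIE and for the mean response. The shares of all genes called by these alternatives are not given beside the counts, which are descriptions only. The cause of these changes was not tested.

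No value that changed sign passed the threshold before or after. In the CD11c response Ccr1 was -0.029 by DESeq2, -0.0291 with RLE scaling, -0.10 with surrogate variables and -0.072 with thinning, and Ccr2 0.019 with the block and 0.20 with surrogate variables. For Lyve1 against IAIE after IC Ccrl2 was 0.0025, 0.0061 and 0.029 by DESeq2, RLE scaling and surrogate variables. For CD11c against IAIE after IC Cx3cr1 was 0.34 by voom and 0.11 with surrogate variables. In the response of Lyve1 minus IAIE, Ccr1 was -0.041 with the block, Cx3cr1 0.075 with surrogate variables, and Cxcr4 -0.015, -0.30 and -0.036 with the block, voom and surrogate variables. In that of Lyve1 minus CD11c, Ccrl2 was 0.16 by DESeq2, 0.16 with RLE scaling, 0.035 without a filter, 0.063 with only the compared groups, 0.12 with the block, 0.12 by voom and 0.33 with surrogate variables.

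With 1 library left out, the log2 values that changed sign ranged as follows. In the CD11c response Ccr1 ran from -0.29 to 0.52 and Ccr2 from -0.28 to 0.24. In the Lyve1 response Ccrl2 ran from -0.12 to 0.65, and in the mean response Cx3cr1 from -0.57 to 0.065. Ccrl2 ran from -0.18 to 1.16 for Lyve1 against IAIE controls and from -0.43 to 0.32 after IC. For CD11c against IAIE controls Ccr1 ran from -0.62 to 0.34 and Cxcr4 from -0.021 to 1.01, and after IC Cx3cr1 from -0.48 to 1.28. In the response of CD11c minus IAIE, Ccrl2 ran from -1.22 to 0.082 and Cxcr4 from -0.31 to 0.72. In that of Lyve1 minus CD11c, Ccrl2 ran from -0.34 to 0.42 and Cxcr4 from -0.68 to 0.060. In that of Lyve1 minus IAIE, Ccr1 ran from -0.45 to 0.33, Ccrl2 from -1.22 to 0.18, Cx3cr1 from -0.64 to 1.15 and Cxcr4 from -0.49 to 0.43.

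The replicate block changed 2 calls, Ccrl2 for CD11c against IAIE controls and Ccr1 for Lyve1 against CD11c after IC (log2 1.29, adjusted p = 0.0366 by edgeR), and no other. Surrogate variables were estimated at 6 and 5 by the 2 estimators and limited to 3. With 2 or 3 libraries a group, responses of the size of their SEs were not detectable.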
